A study of Drosophila melanogaster with 8 samples.

Results

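The genes described here are the cytochrome P450 genes of the Drosophila melanogaster midgut. They were taken as the rows of the deposited table whose symbol is Cyp followed by a digit, which gave 85 of 19299 features. The rule read symbols and no measured value. Cyp1 (Dmel_CG9916, chromosome X, 16317673 to 16320370) is caught by this rule, but it encodes a cyclophilin, a peptidyl-prolyl isomerase that folds proteins, and is no P450. It had 292, 244, 283 and 258 RPKM in Que samples 1 to 4, against 274, 243, 251 and 241 RPKM in DMSO samples 1 to 4, and was left out, so that 84 P450 genes remained. These comprised 22 genes of the Cyp4 family, 25 of Cyp6, 6 of Cyp9, 7 of Cyp12, 4 of Cyp28 and 20 of other families, and 2 of the Cyp6 genes (Cyp6t2Psi and Cyp6a15Psi) are annotated as pseudogenes. A further 6 P450 genes, which make the moulting hormone ecdysone, carry other symbols and are given apart from the 84.

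The Que group held midguts of female flies, labelled WT and aged 40 to 50 days, whose food contained 10 µM quercetin (Que), a plant flavonoid, dissolved in DMSO. The DMSO group held midguts of females with the same label, sex and age, fed the solvent alone. There were 4 samples in each group, each a pool of many dissected midguts, and the strain behind the label WT is not given in the sources used here. Nothing in the labels says that samples of a group came from separate fly cultures, so the p-values measure the spread between these pools, which may be technical. In pooled tissue, fewer cells of a type and less RNA per cell cannot be told apart.

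P450s are heme enzymes that use electrons from NADPH to insert oxygen into a substrate, which makes fat-soluble compounds easier to modify and excrete. Those in the endoplasmic reticulum receive their electrons from the reductase Cpr, helped by cytochrome b5, and those in mitochondria from ferredoxins and the reductase dare. In insects the midgut is a main site where P450s of the Cyp6, Cyp9 and Cyp28 families (the CYP3 clan) oxidise plant compounds and insecticides taken up with food, while Cyp4 enzymes also act on fatty acids and hydrocarbons and other members make or inactivate hormones. In the honey bee, P450s of the Cyp6 family oxidise quercetin itself.

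Levels are given as RPKM, read counts divided by gene length in kilobases and by the assigned reads in units of 1000000, which can be compared between genes, and for sums as reads per 1000000 assigned reads. Assigned reads numbered 27253832 to 35619139 in a sample, and RPKM scaled back by gene length gave whole reads for 100% of values within a tolerance of 0.01. The tissue label was checked on markers of cell types. The 6 enterocyte markers (such as the amylase-family maltase Mal-A1 and the trypsin alphaTry) summed to 7183 to 8604 RPKM in Que samples and to 5949.5 to 7356 RPKM in DMSO samples, and the 5 muscle markers to 714 to 1145 RPKM with Que and 687 to 964 RPKM with DMSO. Of the enterocyte markers, 3 were higher and 3 lower with Que, and only the trypsin betaTry was at an unadjusted limma p under 0.05. The trypsin alphaTry averaged 4446 ± 565 RPKM under Que and 3528 ± 389 RPKM under DMSO (SD, n = 4 per group), a log2 fold change of 0.33, while the sterol transport gene Npc1b stood at -0.44. Those of fat body summed to 29.4 to 59.1 RPKM with Que and 34.1 to 47.4 RPKM with DMSO. The 5 Malpighian tubule markers reached 1.08 to 6.01 RPKM with Que and 3.17 to 10.4 RPKM with DMSO, and each of the 4 that were tested was lower with Que (median log2 fold change -0.90, none at an unadjusted limma p under 0.05). The 5 ovary markers summed to 1.05 to 1.78 RPKM with Que and 1.36 to 4.53 RPKM with DMSO. Of these, osk, which marks the germ line, had 0 reads in every Que sample and 154, 4, 4 and 2 reads in DMSO samples 1 to 4. The marker vas had 40 to 89 reads in Que samples and 72 to 189 reads in DMSO samples. Vm26Aa averaged 0.424 RPKM under Que and 0.300 RPKM under DMSO, and nos and bcd had at most 11 reads in a sample. The part of these other tissues in any P450 value was not tested.

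The old midgut held a few P450 transcripts at very high levels and many at low ones. In DMSO samples, 35 of the 84 genes (41.7%) averaged over 10 RPKM, against 25.7% of all features, while 21 lay between 1 and 10 RPKM and 28 under 1 RPKM. The 5 genes over 100 RPKM were Cyp9f2, Cyp9b2, Cyp6a23, Cyp4p1 and Cyp6d5. Counted as reads per 1000000, the 10 genes of highest level took 72.9% of all P450 reads in Que samples and 72.8% in DMSO samples, and Cyp9f2 alone took 20.3% with Que and 21.3% with DMSO. By family, Cyp9 made up 40.6% of P450 reads with Que and 41.5% with DMSO, although it has only 6 genes. Cyp6 made up 29.5% with Que and 28.5% with DMSO, Cyp4 17.9% and 18.4%, Cyp12 6.59% and 6.37%, Cyp28 2.21% and 1.88% and the other families 3.19% and 3.37%. Every Cyp9 gene was over 10 RPKM in DMSO samples, whereas 9 of 25 Cyp6 genes and 13 of 20 genes of the other families stayed under 1 RPKM. Among the 72 P450 genes whose mean over all samples reached 0.1 RPKM, the median DMSO level was 8.72 RPKM, against 4.62 RPKM for all 13249 genes at or over that mean.

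**Figure D1:**
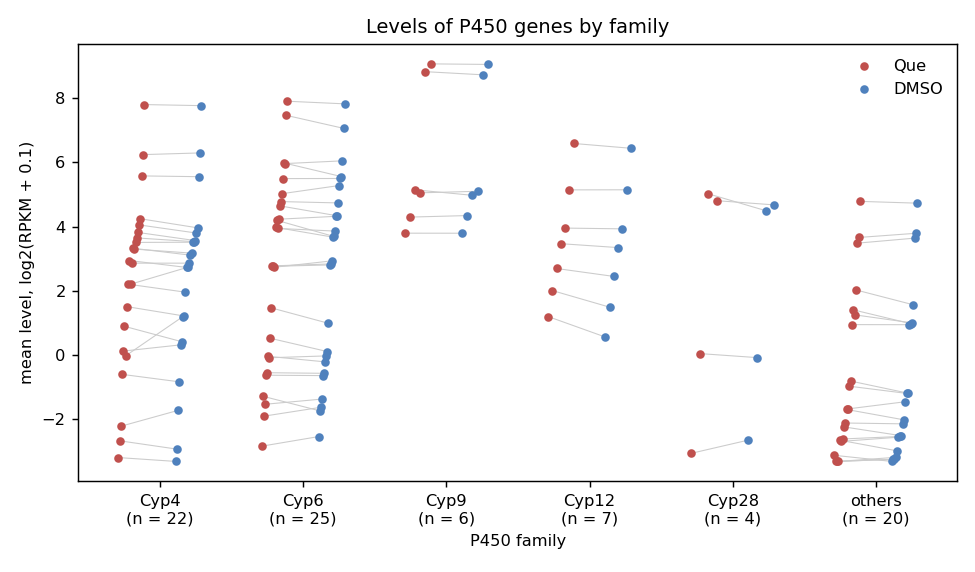
Mean level of each of the 84 P450 genes by family, on the log2(RPKM + 0.1) scale, with Que means (red) joined to DMSO means (blue). The 2 highest genes are Cyp9 genes in both groups, several genes of the Cyp4, Cyp6 and other families lie close to 0 reads, and most lines are nearly flat.

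Added together, P450 transcripts differed little between the groups. Summed P450 reads per 1000000 were 4360.3, 4404, 4794 and 5095 in Que samples 1 to 4, against 4736, 4527, 3893 and 4459 in DMSO samples 1 to 4. Que samples 3 and 4 were the highest and DMSO sample 3 was the lowest, while Que samples 1 and 2 lay below DMSO samples 1, 2 and 4, so that the groups overlapped. The means were 4664 ± 348 with Que and 4404 ± 361 with DMSO (SD, n = 4 each), a ratio of 1.06, and the difference was smaller than the SD of either group. The Cyp28 sum stood furthest apart, at 109.9, 88.7, 111 and 103 reads per 1000000 in Que samples, against 92.6, 92.6, 64.1 and 82.2 in DMSO samples, a ratio of 1.25. Here too Que sample 2 lay below DMSO samples 1 and 2. The ratios of the other families were 1.10 for Cyp6, 1.10 for Cyp12, 1.04 for Cyp9 and 1.03 for Cyp4, and the genes of other families summed to 149 reads per 1000000 in both groups.

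**Figure D2:**
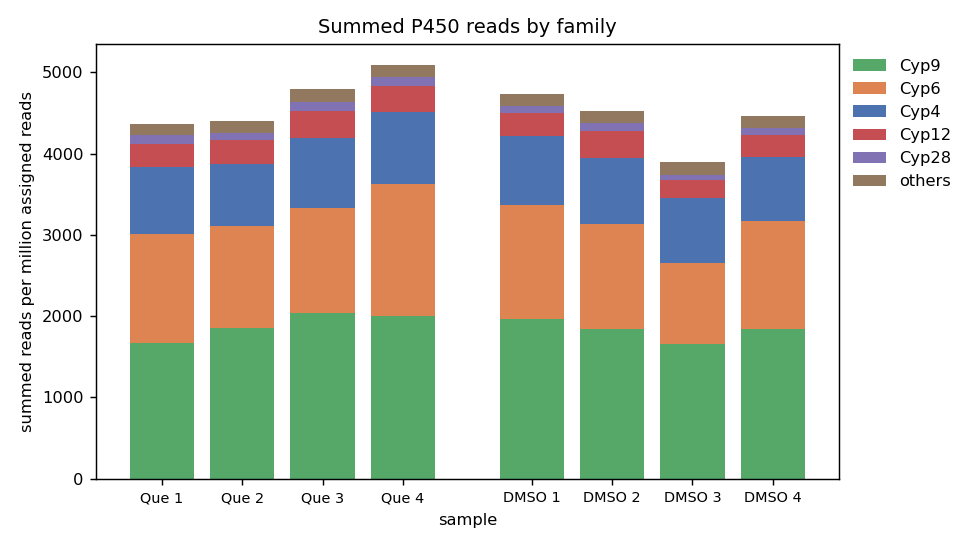
Summed reads per 1000000 assigned reads of P450 genes in each sample, stacked by family (bars start at 0; Que samples left, DMSO samples right). Que 3 and Que 4 are the tallest bars and DMSO 3 is the shortest, and the families keep nearly the same proportions.

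For single genes, log2(RPKM + 0.1) was compared between Que and DMSO with limma over the 13249 genes, two-sided, so the fold changes understate the change of genes near 0.1 RPKM. None of the 72 P450 genes tested passed a Benjamini-Hochberg adjusted p of 0.05, and among all genes the percentage called was likewise 0. The smallest adjusted p was 0.946 among P450 genes and 0.0905 among all genes in limma, and the voom fit on recovered reads called none either. At an unadjusted p under 0.05, limma gave 2 P450 genes higher with Que (Cyp6a2 and Cyp6t1) and 0 lower, against 1.68% higher and 1.93% lower (3.62% in all) over all genes tested, which is 479 genes in limma and 449 in voom. In 0 of the 72 genes were the groups apart, with the 4 Que values all higher or all lower than the 4 DMSO values, against 2.14% of all genes tested (0.876% higher and 1.26% lower with Que). Without Que sample 4 or without DMSO sample 4, limma gave 0 P450 genes at an unadjusted p under 0.05, against 353 and 471 of all genes. It gave 5 P450 genes higher with Que without Que sample 2, where 3.61% of all genes were (1170 genes in both directions), and 5 without DMSO sample 1, where 2.26% were. Without DMSO sample 2 it gave 2 lower (Cyp4g1 and Cyp6d2), against 1.89% of all genes. Without Que sample 1 the groups were apart for 5 P450 genes higher and 1 lower with Que, where 2.43% and 2.91% of all genes were. A p that misses the threshold does not show that a gene was equal in the groups.

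Most differences were small, and more were above 0 than below it. Of the 72 genes, 50 (69.4%) had a log2 fold change above 0, against 47% of all genes, and the median was 0.10, against -0.02 over all genes. No test was made of this median. It rested in part on a few samples, as it was 0.03 without Que sample 4, 0.05 without DMSO sample 3 and 0.14 without Que sample 2, and the share above 0 was 59.7%, 58.9% and 72.6% in these fits. In the data themselves, the median P450 gene lay 0.24 above its mean over all samples in Que sample 4 and 0.09 below it in DMSO sample 3, on the log2 scale. Que samples 3 and 4 each held the highest value of 19 genes, and DMSO sample 3 the lowest value of 18. By family, the medians were 0.12 for Cyp4 (14 of 20 tested above 0), 0.06 for Cyp6 (15 of 24), 0.01 for Cyp9 (3 of 6), 0.17 for Cyp12 (7 of 7), 0.11 for Cyp28 (3 of 3) and 0.13 for the others (8 of 12). For 50 of the 72 genes the log2 fold change was under 0.25 in size, and for 6 it was over 0.5.

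**Figure D3:**
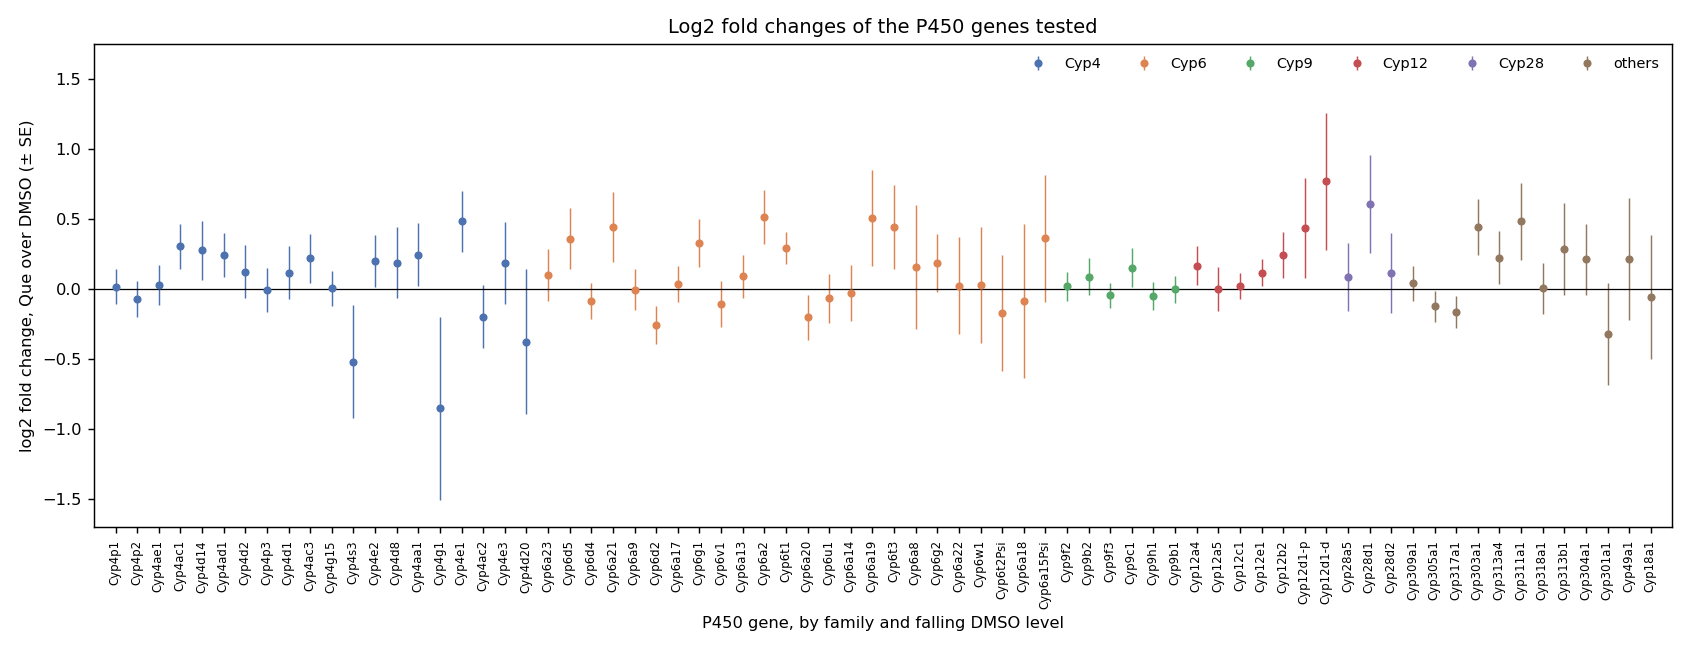
Log2 fold change of Que over DMSO, with its standard error from limma, for the 72 P450 genes tested, ordered within each family by falling DMSO level. More points lie above 0 than below it (50 of 72), and the widest error bars belong to genes of low level.

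The most abundant P450s of the midgut, Cyp9f2 and Cyp9b2, had small log2 fold changes. Cyp9f2 (Dmel_CG11466, chromosome 3R, 12403340 to 12406028) had 516, 502, 567 and 572 RPKM in Que samples 1 to 4, against 606, 533, 484 and 506 RPKM in DMSO samples 1 to 4. All Que values lay within the DMSO range, and the log2 fold change was 0.02 (standard error 0.10), with its sign turned to -0.04 by quantile normalization. Cyp9b2 (Dmel_CG4486, chromosome 2R, 7130277 to 7132139) had 355, 476, 499.9 and 490.1 RPKM with Que, against 434, 425, 377 and 466 RPKM with DMSO. Que sample 1 was the lowest of the 8 samples while the other 3 Que samples were the highest, and the log2 fold change was 0.09 (standard error 0.13) with all samples and 0.20 without Que sample 1, but 0.03 without DMSO sample 3, 0.04 without Que sample 3 and 0.05 without Que sample 4. Its neighbour Cyp9b1, at 13.8 ± 1.22 RPKM under Que and 13.8 ± 0.635 RPKM under DMSO (SD, n = 4 per group), differed by 0.00 on the log2 scale. The other Cyp9 genes, Cyp9f3, Cyp9c1 and Cyp9h1, had log2 fold changes between -0.05 and 0.15. Reads of Cyp9c1 equalled those of the feature CR43787 on the opposite strand in 6 of the 8 samples (1678 to 2136 reads for each), which covers 98.2% of the gene, so the value of Cyp9c1 is uncertain.

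In the Cyp6 family, Cyp6a23 (Dmel_CG10242, chromosome 2R, 14875829 to 14877654) was the highest, with 234, 228, 207 and 293 RPKM in Que samples and 257, 237, 152 and 262 RPKM in DMSO samples. Apart from DMSO sample 3, which was the lowest, its groups covered much the same range, and the log2 fold change was 0.10 (standard error 0.19) with all samples, 0.00 without Que sample 4 and -0.08 without DMSO sample 3. Cyp6d5 (Dmel_CG3050, chromosome 3R, 14029228 to 14031483) had 124, 135, 213 and 236 RPKM with Que, against 129, 135, 113 and 158 RPKM with DMSO. Que samples 3 and 4 stood above all others and Que samples 1 and 2 lay within the DMSO range, which gave a log2 fold change of 0.36 (exact permutation p = 0.286, standard error 0.22). Without Que sample 1 it was 0.51, and the unadjusted limma p was then under 0.05, while without Que sample 4 it was 0.20 and without Que sample 3 it was 0.25. Cyp6d4 averaged 62.4 ± 7.93 RPKM under Que and 66.2 ± 8.29 RPKM under DMSO (SD, n = 4 per group), a log2 fold change of -0.09. Cyp6a21 (Dmel_CG10247, chromosome 2R, 14885264 to 14886947) had 84.3, 54.4, 47.3 and 66.8 RPKM with Que, against 58.0, 58.6, 29.1 and 42.6 RPKM with DMSO. It was lowest in DMSO sample 3 and highest in Que sample 1, and its log2 fold change was 0.44 (standard error 0.25, exact permutation p = 0.200), or 0.29 without Que sample 1 and 0.23 without DMSO sample 3.

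Of the P450s linked to insecticides and induced by foreign compounds in the fly, Cyp6a2 was the member with the smallest p. Cyp6a2 (Dmel_CG9438, chromosome 2R, 6779749 to 6781491), which is raised by phenobarbital and in insecticide-resistant strains, had 23.1, 15.2, 15.9 and 18.8 RPKM in Que samples 1 to 4, against 16.5, 14.2, 10.1 and 10.4 RPKM in DMSO samples 1 to 4. Que sample 1 was the highest and DMSO samples 3 and 4 the lowest, and DMSO sample 1 lay above Que samples 2 and 3. It averaged 18.3 ± 3.57 RPKM under Que and 12.8 ± 3.11 RPKM under DMSO (SD, n = 4 per group), a log2 fold change of 0.52 (standard error 0.19, unadjusted limma p = 0.0246, adjusted p = 0.946, exact permutation p = 0.0857). The permutation test has 70 arrangements and allows no p below 0.0286. With each sample left out in turn, the log2 fold change of Cyp6a2 ran between 0.40 and 0.65, and the unadjusted limma p stayed under 0.05 in 4 of these 8 fits, the exceptions being those without Que sample 1, Que sample 4, DMSO sample 3 or DMSO sample 4.

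Cyp6t1 (Dmel_CG1644, chromosome X, 21517434 to 21519218) was the other gene at an unadjusted p under 0.05. It had 15.2, 13.1, 15.6 and 18.7 RPKM with Que, against 13.1, 12.8, 12.8 and 12.0 RPKM with DMSO. The DMSO samples lay close together, and of the Que samples only sample 2 fell among them, just under DMSO sample 1. The means were 15.7 ± 2.33 RPKM under Que and 12.6 ± 0.466 RPKM under DMSO (SD, n = 4 per group), a log2 fold change of 0.29 (standard error 0.12, unadjusted limma p = 0.0316, adjusted p = 0.946, exact permutation p = 0.0571). Over the fits without each sample its log2 fold change ran between 0.21 and 0.38, with the unadjusted limma p under 0.05 in 4 of 8, and not without Que sample 4 or without DMSO sample 2, 3 or 4. After median-of-ratios scaling the groups of Cyp6t1 no longer overlapped. It was then 1 P450 gene of 72, where 1.08% of all genes tested were apart and higher with Que. Neither Cyp6a2 nor Cyp6t1 shares bases with another feature of the table.

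Cyp6g1 (Dmel_CG8453, chromosome 2R, 12185667 to 12188431), whose raised expression gives resistance to DDT and neonicotinoids, had 28.4, 22.7, 21.6 and 27.1 RPKM with Que, against 23.6, 24.1, 14.6 and 18.1 RPKM with DMSO. DMSO samples 3 and 4 were the lowest, DMSO samples 1 and 2 lay between the Que samples, and the log2 fold change was 0.33 (standard error 0.17, exact permutation p = 0.171). It was 0.19 without DMSO sample 3, and 0.43 without DMSO sample 2, where the unadjusted limma p was under 0.05. Cyp6a8 (Dmel_CG10248, chromosome 2R, 14887171 to 14889010), which barbiturates and caffeine induce in the fly, had 0.643, 0.814, 1.03 and 0.870 RPKM with Que, against 1.70, 0.851, 0.723 and 0.240 RPKM with DMSO. The Que values lay inside the wide DMSO range, and its sign turned with 1 sample, since the log2 fold change of 0.16 became -0.27 without DMSO sample 4. Cyp6d2 (chosen after its values were seen), linked in the fly to resistance to the plant alkaloid camptothecin, averaged 32.5 ± 4.52 RPKM under Que and 38.8 ± 5.22 RPKM under DMSO (SD, n = 4 per group). Its log2 fold change of -0.25 (standard error 0.13) was the lowest among genes of the Cyp6 family tested, and 51.0% of its bases are shared with nsr on the opposite strand.

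The Cyp12 enzymes belong to the mitochondrial P450s. Cyp12a4 (Dmel_CG6042, chromosome 3R, 19135158 to 19137136), whose raised expression gives resistance to the insecticide lufenuron, had 88.5, 92.8, 107 and 96.8 RPKM with Que, against 87.1, 107, 67.1 and 85.7 RPKM with DMSO. DMSO sample 3 was the lowest and the others overlapped, with a log2 fold change of 0.17 (standard error 0.14), or 0.05 without DMSO sample 3 and 0.27 without DMSO sample 2. The near-identical copies Cyp12d1-p (Dmel_CG30489, chromosome 2R, 11117225 to 11121884) and Cyp12d1-d (Dmel_CG33503, chromosome 2R, 11123658 to 11125647) encode an enzyme that caffeine, phenobarbital and DDT induce in the fly, and reads may be split between them. Cyp12d1-p had 5.65, 2.15, 2.41 and 5.46 RPKM with Que, against 3.44, 3.41, 2.01 and 1.96 RPKM with DMSO. Cyp12d1-d had 2.77, 1.15, 1.82 and 3.02 RPKM with Que, against 2.00, 2.05, 0.397 and 1.05 RPKM with DMSO. In both copies Que samples 1 and 4 were the highest of all, Que sample 2 lay within the DMSO range and the 2 highest DMSO samples were samples 1 and 2. The log2 fold change was 0.43 (standard error 0.36, exact permutation p = 0.286) for Cyp12d1-p and 0.77 (standard error 0.49, exact permutation p = 0.257) for Cyp12d1-d. That of Cyp12d1-p was 0.22 without Que sample 1, 0.23 without Que sample 4 and 0.67 without Que sample 2, and that of Cyp12d1-d was 0.32 without DMSO sample 3. All 7 Cyp12 genes had a log2 fold change above 0, but Cyp12a5 and Cyp12c1 stood at 0.00 and 0.02.

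Among the Cyp28 genes, Cyp28a5 was the highest in DMSO samples. Cyp28a5 (Dmel_CG8864, chromosome 2L, 13977302 to 13979569) had 17.1, 24.3, 39.0 and 31.3 RPKM with Que, against 19.3, 27.7, 25.0 and 29.9 RPKM with DMSO. The lowest and the 2 highest values were all in Que samples, and the log2 fold change of 0.09 (standard error 0.24) became -0.10 without Que sample 3. Cyp28d1 (Dmel_CG10833, chromosome 2L, 5210460 to 5212445; chosen after its values were seen), linked to nicotine resistance in the fly, had 48.0, 27.6, 25.5 and 28.3 RPKM with Que, against 35.3, 26.4, 11.0 and 17.3 RPKM with DMSO. Que sample 1 was the highest and DMSO samples 3 and 4 the lowest, and the spread within DMSO was wide, with a coefficient of variation of 47.3%. Its log2 fold change was 0.61 (standard error 0.35, exact permutation p = 0.229), or 0.31 without DMSO sample 3, 0.40 without Que sample 1 and 0.87 without DMSO sample 1, where the unadjusted limma p was under 0.05.

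**Figure D4:**
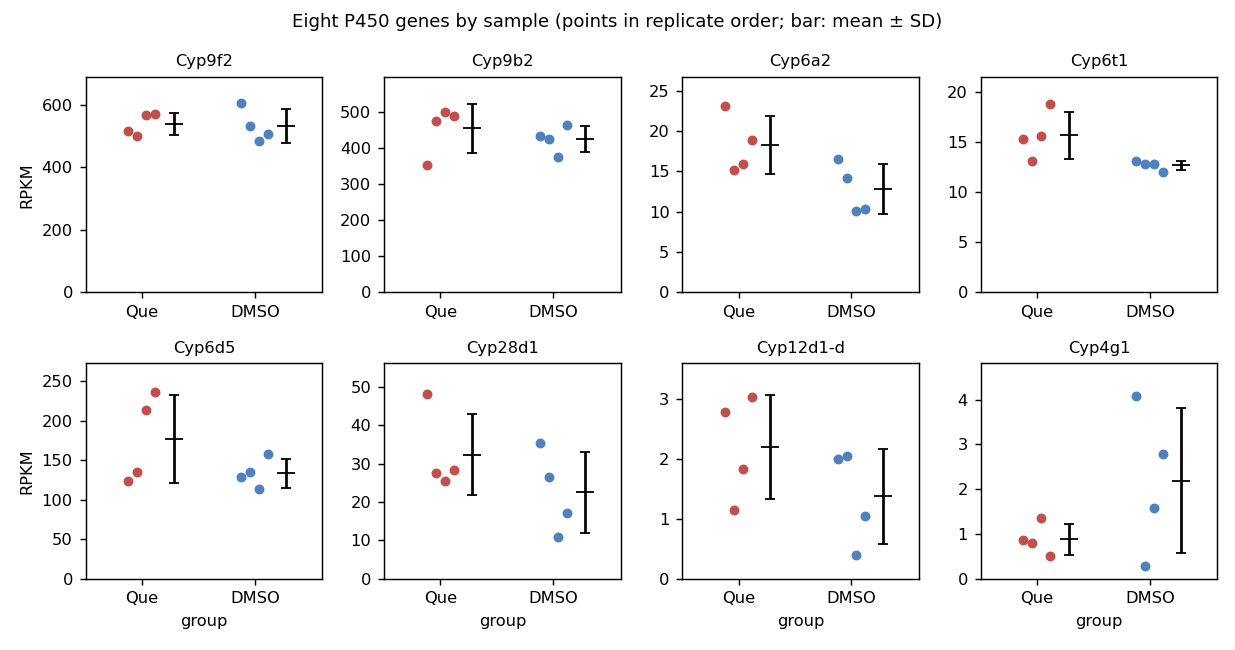
RPKM of 8 P450 genes in each sample, with points in replicate order and the mean ± SD beside them (Que left, DMSO right; axes start at 0). Cyp9f2 lies at much the same height in both groups, and Cyp9b2 has Que sample 1 below the DMSO points and the other Que points above them. Cyp6a2 and Cyp6t1 lie higher with Que with an overlap, and Cyp28d1, Cyp12d1-d and Cyp4g1 vary widely within a group.

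In the Cyp4 family, Cyp4p1 (Dmel_CG10842, chromosome 2R, 9240041 to 9242139) had 184, 202, 272 and 236 RPKM with Que, against 209.9, 215, 227 and 222 RPKM with DMSO. The DMSO samples varied little, with a coefficient of variation of 3.48%, and the Que samples lay on both sides of them, so that the log2 fold change was 0.02 (standard error 0.13), or -0.01 after quantile normalization. Cyp4p2 averaged 75.7 ± 14.2 RPKM under Que and 78.6 ± 5.29 RPKM under DMSO (SD, n = 4 per group), a log2 fold change of -0.07. Cyp4ae1 averaged 47.8 ± 5.99 RPKM under Que and 47.0 ± 8.47 RPKM under DMSO (SD, n = 4 per group), a log2 fold change of 0.03, and 88.3% of its bases lie in CR44690 on the opposite strand. Cyp4e1 (chosen after its values were seen) had 1.62, 1.31, 2.07 and 2.02 RPKM with Que, against 1.12, 0.935, 1.67 and 1.19 RPKM with DMSO. DMSO sample 3 lay above Que samples 1 and 2, and the log2 fold change was 0.49 (standard error 0.22, exact permutation p = 0.0857). Cyp4e1 had only 59 to 113 reads per sample and shares 82 bases with Mal-A1 on the opposite strand, which had 82649 to 113226 reads.

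Cyp4g1 (Dmel_CG3972, chromosome X, 467057 to 469335) makes cuticular hydrocarbons in oenocytes, cells that lie under the body wall and not in the midgut, and Cyp4g15 is its relative expressed in the nervous system. Cyp4g1 had 0.865, 0.789, 1.35 and 0.514 RPKM with Que, against 4.09, 0.296, 1.59 and 2.79 RPKM with DMSO. DMSO samples 1, 3 and 4 were higher than every Que sample and DMSO sample 2 was the lowest of all 8, so the direction rested on samples of wide spread. Its log2 fold change was -0.85 (standard error 0.65, exact permutation p = 0.314) with all samples and -1.55 without DMSO sample 2, where the unadjusted limma p was under 0.05. It was -0.41 without DMSO sample 1 and -0.59 without DMSO sample 4. Cyp4g15 averaged 7.16 ± 0.663 RPKM under Que and 7.16 ± 0.951 RPKM under DMSO (SD, n = 4 per group), a log2 fold change of 0.00. Cyp4s3 (chosen after its values were seen) was the other gene with a log2 fold change below -0.5, at 4.51 ± 1.97 RPKM under Que and 6.55 ± 2.75 RPKM under DMSO (SD, n = 4 per group) and -0.52 (standard error 0.40), with values of -0.30 without DMSO sample 3, -0.31 without Que sample 1 and -0.86 without DMSO sample 1, where the unadjusted limma p was under 0.05.

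P450s with roles in hormone turnover and cuticle were low, and the sense organ gene Cyp303a1 was higher, at 2.51 to 5.02 RPKM. Cyp18a1, which inactivates 20-hydroxyecdysone, averaged 0.129 ± 0.125 RPKM under Que and 0.125 ± 0.0682 RPKM under DMSO (SD, n = 4 per group), on 4 to 26 reads per sample. Cyp301a1, a mitochondrial P450 of cuticle formation, averaged 0.211 ± 0.149 RPKM under Que and 0.263 ± 0.0632 RPKM under DMSO (SD, n = 4 per group), and Cyp49a1, another mitochondrial P450, 0.207 ± 0.147 and 0.146 ± 0.0583 RPKM. Their log2 fold changes were -0.06 for Cyp18a1, -0.32 for Cyp301a1 and 0.21 for Cyp49a1, with standard errors of 0.37 to 0.44. Only differences well above these errors could have been called. With each sample left out, Cyp18a1 ran between -0.38 without Que sample 3 and 0.14 without Que sample 2, Cyp301a1 between -0.61 without Que sample 4 and -0.09 without Que sample 3, and Cyp49a1 between -0.04 without Que sample 4 and 0.54 without Que sample 2. Cyp303a1 (Dmel_CG4163, chromosome 2L, 16294183 to 16296969), needed for the development of sensory bristles, had 4.04, 2.70, 5.02 and 4.11 RPKM with Que, against 2.51, 2.64, 3.60 and 2.65 RPKM with DMSO. Que samples 1, 3 and 4 lay above every DMSO sample and Que sample 2 lay below DMSO sample 3, with a log2 fold change of 0.44 (exact permutation p = 0.0571, standard error 0.20). The gene shares 919 bases, 33.0% of its length, with heix on the opposite strand. Cyp309a1, the highest P450 outside the 5 families above, had 23.2, 24.5, 33.9 and 28.3 RPKM with Que, against 25.3, 27.8, 26.4 and 26.3 RPKM with DMSO, with the lowest and the 2 highest values in Que samples and a log2 fold change of 0.04.

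The 12 P450 genes below a mean of 0.1 RPKM were Cyp28c1, Cyp309a2, Cyp6a16, Cyp4d21, Cyp310a1, Cyp316a1, Cyp312a1, Cyp313a5, Cyp313a2, Cyp313a3, Cyp313a1 and Cyp4c3. None had more than 22 reads in a sample, and 5 had at most 3 reads in every sample, the level taken here as the floor of detection (0.0842 to 0.110 reads per 1000000, counting error only). Cyp4d21, a gene of the male head known for courtship behaviour in the fly, had 0 to 2 reads per sample. These genes were not tested. The 6 ecdysone synthesis genes were low too, together at 1.17 to 1.69 RPKM in Que samples and 1.03 to 1.57 RPKM in DMSO samples. Of these, spok and phm had at most 3 reads in a sample, and spo, dib, sad and shd passed the mean of 0.1 RPKM. None of these 4 had an unadjusted limma p under 0.05.

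Many P450 genes lie side by side in arrays of duplicated genes. Of the 84 genes, 35 lie on chromosome arm 2R. With gaps of up to 20 kb, 47 genes formed 16 arrays, 25 of these genes being on 2R, and in 8 arrays the tested members spanned a 10-fold or larger range of DMSO levels. The longest array ran from Cyp6a22 to Cyp317a1 (chromosome 2R, 14871366 to 14903095) and held 9 genes within 31.7 kb. In DMSO samples its levels reached from 0.571 RPKM for Cyp6a22 to 227 RPKM for Cyp6a23, a 397-fold range between genes 2 places apart. Between them lies Cyp6a17, which acts in temperature preference in the fly, at 27.4 ± 4.17 RPKM under Que and 26.6 ± 2.79 RPKM under DMSO (SD, n = 4 per group). Cyp6a20, which acts in aggression, averaged 6.55 ± 1.17 RPKM with Que and 7.52 ± 1.19 RPKM with DMSO. The 9 genes had log2 fold changes between -0.20 and 0.51 with a median of 0.04, and 6 were above 0. Cyp6a9 and Cyp6a19 of this array share 397 bases on opposite strands, and Cyp6a19 is the lower by far, so its value is uncertain. Elsewhere, DMSO levels differed 30.9-fold between Cyp9b2 and Cyp9b1, 26.7-fold between Cyp28d1 and Cyp28d2, 26.5-fold between Cyp6g1 and Cyp6g2 and 15.6-fold between Cyp9f2 and Cyp9f3. The copies Cyp12d1-p and Cyp12d1-d differed 1.97-fold.

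**Figure D5:**
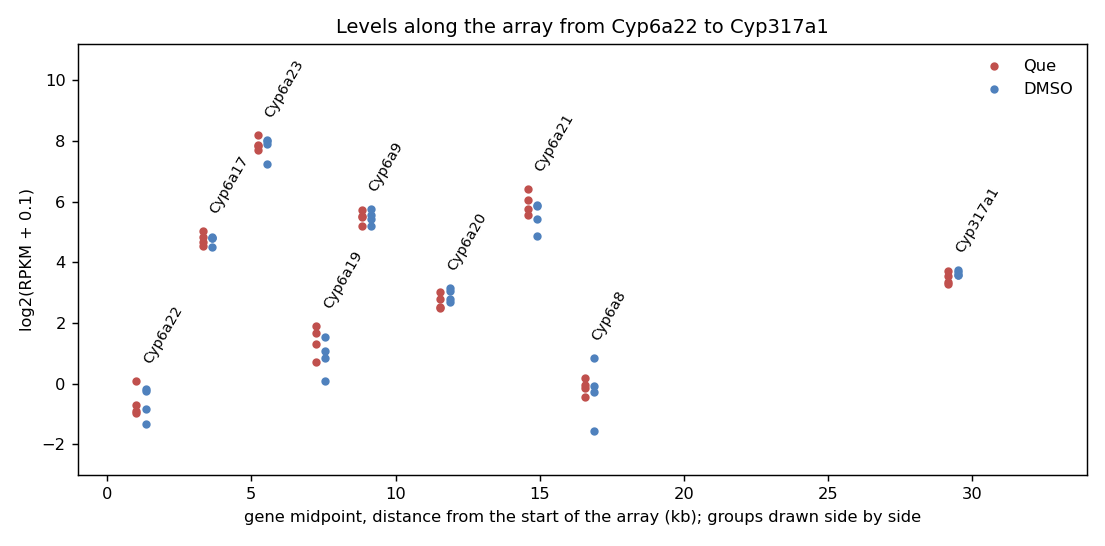
Levels along the Cyp6a22 to Cyp317a1 array, as log2(RPKM + 0.1) in each sample against the distance of the gene's midpoint from the start of the array in kilobases (Que red, DMSO blue, drawn side by side). Levels change steeply from a gene to the next, with Cyp6a23 at the top, while the groups overlap within each gene.

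The same DMSO samples were low in several of the genes above whose mean was higher with Que. These genes were taken from those with a higher mean with Que, so they do not stand for P450 genes in general. On the log2 scale, the median P450 gene lay -0.06, -0.08, 0.08 and 0.24 from its mean in Que samples 1 to 4. In DMSO samples 1 to 4 it lay 0.03, -0.005, -0.09 and -0.06 from that mean. The part of the low DMSO values in the log2 fold changes was not tested. Over the 72 genes tested, DMSO sample 3 held the lowest value of 18, DMSO samples 1 and 2 of 10 each and DMSO sample 4 of 8. In Cyp6a2, Cyp6g1, Cyp28d1, Cyp12d1-p, Cyp12d1-d and Cyp6a21, DMSO samples 3 and 4 were both below DMSO samples 1 and 2, and this held for other genes of lower rank, of which these were chosen after their values were seen. Cyp4ac1 (Dmel_CG14032, chromosome 2L, 5264001 to 5265899) had 18.9, 18.3, 17.1 and 21.1 RPKM with Que, against 17.8, 18.9, 11.6 and 13.6 RPKM with DMSO. Cyp4ad1 (Dmel_CG2110, chromosome 2R, 8439395 to 8442806) had 14.8, 11.1, 12.7 and 17.4 RPKM with Que, against 13.3, 12.8, 10.5 and 10.3 RPKM with DMSO. In both, the Que samples lay above DMSO samples 3 and 4 and overlapped DMSO samples 1 and 2, with log2 fold changes of 0.31 and 0.24. Cyp311a1, of the CYP4 clan, had 2.86, 1.98, 2.26 and 3.07 RPKM with Que, against 2.51, 2.36, 1.49 and 1.08 RPKM with DMSO, the same order on 54 to 148 reads per sample. Genes such as Cyp6v1 and Cyp305a1 (both chosen after their values were seen) had lower means with Que. Cyp6v1 averaged 18.7 ± 3.91 RPKM under Que and 19.9 ± 2.68 RPKM under DMSO (SD, n = 4 per group). Cyp305a1 averaged 12.6 ± 0.557 RPKM under Que and 13.8 ± 1.71 RPKM under DMSO. Their log2 fold changes were -0.10 and -0.12.

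The spread between DMSO samples differed among genes. Among the 35 genes over 10 RPKM, the coefficient of variation over DMSO samples was under 10% for 13. It was lowest for Cyp12e1 (1.28%), Cyp4p1 (3.48%) and Cyp6t1 (3.68%), and highest for Cyp28d1 (47.3%), Cyp6a21 (29.9%) and Cyp4d14 (28.8%). These genes were chosen after their values were seen, apart from Cyp4p1, Cyp6t1 and Cyp6a21. Cyp12e1 had 10.0, 10.3, 12.3 and 11.2 RPKM in Que samples, against 10.1, 10.1, 10.2 and 9.88 RPKM in DMSO samples, so that Que samples 2, 3 and 4 were above the DMSO values and Que sample 1 was among them. The 3 genes of lowest DMSO spread were taken for that spread, so their larger Que SD follows in part from the choice. They had 11.0 ± 1.05 RPKM under Que and 10.1 ± 0.129 RPKM under DMSO for Cyp12e1 (mean and SD, n = 4 per group), 224 ± 39.1 and 218 ± 7.61 RPKM for Cyp4p1 and 15.7 ± 2.33 and 12.6 ± 0.466 RPKM for Cyp6t1. In the 3 genes of highest DMSO spread, the SD was 10.5 RPKM under Que and 10.6 RPKM under DMSO for Cyp28d1. It was 16.2 and 14.1 RPKM for Cyp6a21 and 2.99 and 3.97 RPKM for Cyp4d14. The spread of the 2 groups was not compared over all P450 genes.

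The proteins that P450s work with showed no call either. The reductase Cpr had 134, 139.6, 115 and 145 RPKM in Que samples 1 to 4, against 150.2, 149, 124 and 136 RPKM in DMSO samples 1 to 4, a log2 fold change of -0.07 (standard error 0.11). Cyt-b5 was much higher, at 1479.9 ± 220.3 RPKM under Que and 1449 ± 136 RPKM under DMSO (SD, n = 4 per group), and dare averaged 16.3 ± 0.879 RPKM with Que and 16.3 ± 0.563 RPKM with DMSO. Of the 6 redox partners, 4 were above 0, the median log2 fold change was 0.03 and none had an unadjusted limma p under 0.05. Regulators of detoxification genes comprise the transcription factor cnc with its partner maf-S and inhibitor Keap1, the nuclear receptor Hr96, ss with its partner tgo, and the juvenile hormone receptors Met and gce. Of the 7 tested (ss had too few reads), 2 were above 0, and none had an unadjusted limma p under 0.05. The median of their log2 fold changes was -0.04. Hr96, which responds to foreign compounds, had 35.8, 46.1, 36.9 and 32.1 RPKM with Que, against 39.5, 45.7, 51.0 and 43.0 RPKM with DMSO. Que sample 2 lay among the DMSO samples and the other 3 Que samples below them, with a log2 fold change of -0.25 (exact permutation p = 0.114, standard error 0.13).

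Overlapping genes limit some of these values. Of the 84 genes, 21 share bases with a feature on the opposite strand, and 11 share over 20% of their bases. Cyp4d14 had 587 to 1091 reads per sample and the feature CR45479, which covers 96.2% of it on the opposite strand, had 597 to 1110 reads. Reads of such pairs cannot be told apart where counting did not use strand, and the values of Cyp9c1, Cyp4d14, Cyp4d2 and Cyp4ae1, each almost wholly covered, are the least certain.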

How the data were processed

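RNA was measured in 8 samples of pooled midguts, 4 per group, with groups taken from the sample labels. The authors trimmed the reads with Trimmomatic 0.36, merged reads with the same molecular tag, aligned them with STAR 2.5.3a, counted them per gene with featureCounts and deposited RPKM values. These are reads per kilobase and per 1000000 assigned reads, with no scaling between samples. A stranded kit was used, but the strand setting of the counting and the annotation release are not given in the sources used here. All 84 P450 genes had the same span on RefSeq Release 6 plus ISO1 MT, from which positions and strands were read.

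The 13249 of 19299 features whose mean reached 0.1 RPKM were compared on the log2(RPKM + 0.1) scale with limma 3.58.1 in R 4.3.3, with an intensity trend and Benjamini-Hochberg adjustment over all genes tested. Reads were recovered from RPKM, length and assigned reads. Python 3.11.15 with pandas 2.3.3 and NumPy 2.4.6 gave the sums and exact two-sided permutation tests, and matplotlib 3.10.9 the plots. The limma fit was tested on simulated data.

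Genes named with values were the 10 of highest DMSO level, the highest of each family, those at an unadjusted p under 0.05 or with groups apart on at least 10 reads, and 12 with a known role or a near-identical copy. Others are marked where they appear, or are neighbours in an array or members of a range. The members, lists and tests were chosen with earlier results of these data known. Other settings tried were pseudocounts of 1 and 0.01, the low-value limit raised to 1 RPKM or dropped, scaling by median of ratios, quantile normalization, no intensity trend, the replicate number as a block, removal of each sample's trend on gene length (a loess of span 0.5 on 8783 genes over 300 bases long) and each sample left out. The voom fit used median-of-ratios factors in place of the planned TMM factors, a change made after seeing the data. No sequence is printed, since no sequence was used here.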

Additional observations from a re-analysis of the deposited data

Results flagged for a closer look

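Among 62 groups of 4 samples (the named P450 genes, the family sums and the sum over all P450 genes, each in Que and in DMSO), 2 had a sample far from the other 3, as judged by Dixon's critical value for its gap to the nearest of them over the group's range. Chance flags about 1 in 20 groups, here 3.1. Cyp9b2 in the Que group had Que sample 1 at 355 RPKM, against 476 to 499.9 RPKM in the other 3 Que samples, a gap of 0.837 of the range. Cyp303a1 in the DMSO group had DMSO sample 3 at 3.60 RPKM, against 2.51 to 2.65 RPKM in the other 3 DMSO samples, a gap of 0.87 of the range.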

How the results depend on the processing

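Genes past an adjusted p of 0.05 over all genes numbered 0, and 2 without the filter, 3 without the intensity trend and 0 to 2 with each sample left out. P450 genes at an unadjusted p under 0.05 and higher with Que numbered 2 (1.68% of all genes). They numbered 3 after median-of-ratios scaling (1.95% of all genes), without the intensity trend (1.71%) and with the length trend removed (1.99%). They numbered 4 after quantile normalization (2.00%) and in the voom fit (1.83%). With each sample left out they numbered 0 to 5, against 1.20% to 3.61% of all genes (0 without Que sample 4 or DMSO sample 4). Those lower with Que numbered 0 (1.93% of all genes), and 0 to 2 with each sample left out, against 1.36% to 5.23% of all genes. P450 genes with groups apart numbered 0, against 0.876% of all genes apart and higher with Que and 1.26% apart and lower. They numbered 1 (Cyp6t1, higher with Que) after median-of-ratios scaling (1.08% of all genes apart and higher) and after quantile normalization (1.07%). It was also 1 (Cyp6t1) with the length trend removed (1.33%) and in the voom fit (1.36%). With each sample left out, 0 to 6 P450 genes were apart, against 1.44% to 3.80% of all genes higher and 1.83% to 5.61% lower. The 6 came without Que sample 1, where 2.43% of all genes were apart and higher with Que and 2.91% apart and lower. Redox partners, ecdysone genes and regulators at an unadjusted p under 0.05 numbered 0, and 0 to 1 with each sample left out. The median log2 fold change of P450 genes kept its sign in every alternative (0.03 to 0.14), and the ratio of summed levels ran between 1.02 and 1.09.

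Deviations of same-numbered samples correlated at 0.23, 0.12, 0.01 and 0.03, and 2 of 4 Que samples correlated best with their own number. With so few samples this cannot decide whether the replicate numbers pair them. With the replicate block there were 8 P450 genes higher and 1 lower with Que at an unadjusted p under 0.05, against 3.57% and 4.86% of all genes. Under that block, 1 gene of the redox, ecdysone and regulator lists had such a p, and 1117 of all genes in place of 479.

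For the 24 named genes, 382 of 428 alternative values kept their direction and their side of an unadjusted p of 0.05, 8 lost it, 10 gained it and 28 turned sign, in 12 genes. Cyp18a1 turned to 0.000903 with a pseudocount of 1, and quantile normalization turned Cyp4p1 to -0.0123 and Cyp9f2 to -0.0419. With each sample left out, log2 fold changes ran from -0.384 to 0.143 for Cyp18a1, -0.0965 to 0.298 for Cyp28a5, -0.0652 to 0.116 for Cyp309a1, -0.0375 to 0.54 for Cyp49a1, -0.0478 to 0.148 for Cyp4ae1, -0.0769 to 0.0593 for Cyp4g15, -0.0832 to 0.107 for Cyp4p1, -0.19 to 0.0066 for Cyp4p2, -0.0793 to 0.182 for Cyp6a23, -0.271 to 0.53 for Cyp6a8, -0.157 to 0.00424 for Cyp6d4 and -0.0235 to 0.0845 for Cyp9f2. The cause of these changes was not tested. Quantile normalization gave no value for the summed level.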
